A study of Mus musculus with 18 samples.

Results

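The cardiomyocyte stage of a mouse embryonic stem cell differentiation was compared with its cardiac progenitor stage, gene by gene. The mean of days 8, 10 and 15 (D8, D10, D15) was set against the mean of days 5, 6 and 7 (D5, D6, D7), each day with the same weight. The members are the 13116 of 23337 listed gene symbols whose read counts passed an expression filter. Polyadenylated RNA was sequenced from 18 libraries, 3 for each of the 6 days, so that each stage held 9 libraries. All cells came from 1 line, TBX5-FTA, of the A2Lox.cre strain, a mouse embryonic stem cell strain built for adding a transgene at a fixed site, and all were untreated, so the allele that the line carries is present on every day. The cardiomyocyte stage took in untreated TBX5-FTA cells at D8, D10 and D15, which the labels name immature cardiomyocytes. The progenitor stage took in untreated TBX5-FTA cells at D5, D6 and D7, which the labels name cardiac progenitor cells. The wider study asked how Hedgehog signalling and its GLI factors time differentiation in heart and neural progenitors. Stage and day cannot be told apart here, and the labels do not say whether libraries of the same day derive from cultures grown apart. The p-values reflect only how these libraries scatter, which may be technical.

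Cardiac progenitors are dividing mesoderm cells that become heart muscle as they build sarcomeres and take up cycles of calcium release. Sarcomeres are the contractile units of thick myosin and thin actin filaments between Z discs. The RNA-binding protein LIN28 keeps the let-7 microRNAs low in early cells, and let-7 in turn represses LIN28 and other early genes, a switch that times development in several tissues. Heart cells turn to mitochondria and fatty acids for energy as they mature, while fibroblasts and the epicardium, the outer cell layer of the heart, supply most of its collagen.

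Between 5257601 and 7122093 reads were assigned to genes per library. A level below is in CPM, the read count relative to the library's effective size, and is not corrected for gene length. For a gene the levels of a stage are the lowest, the median and the highest of its 9 libraries, in that order. A difference is the fitted log2 difference of the cardiomyocyte stage minus the progenitor stage with its standard error (SE), and a gene is called when edgeR's quasi-likelihood test gives an adjusted p (Benjamini-Hochberg, over all 13116 genes) under 0.05. Pairs of libraries lay a root mean square log2 distance of 0.385 apart within a day, 1.02 between days of the cardiomyocyte stage, 0.733 between days of the progenitor stage and 1.26 between stages. The last value ranged over pairs from 0.556 to 1.91. Days within a stage thus differed by more than replicate libraries did, and some pairs from different stages lay closer than the mean pair of days within a stage.

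The labelled cell type was checked by its markers. The summed level of 5 heart muscle markers (Myh6, Myh7, Tnnt2, Actn2 and Nkx2-5) was 466.4 to 4273 CPM with a median of 1705 CPM in the cardiomyocyte stage, against 143 to 615 CPM with a median of 267 CPM in the progenitor stage. The stages overlapped in that sum. Fibroblast markers (7 genes, led by Col1a1, Col1a2 and Col3a1) summed to 15820 to 47210 CPM with a median of 25480 CPM in the cardiomyocyte stage, against 415 to 6314 CPM with a median of 2155 CPM in the progenitor stage, with no overlap. Epicardium markers (8 genes) summed to 784 to 2684 CPM in the cardiomyocyte stage, against 365 to 542 CPM in the progenitor stage, also without overlap. Endothelium markers (8 genes) summed to 278 to 537 CPM in the cardiomyocyte stage, against 130 to 544 CPM in the progenitor stage, with overlap. Smooth muscle markers (5 genes) summed to 1236 to 2231 CPM in the cardiomyocyte stage, against 1363 to 3265 CPM in the progenitor stage, with overlap. Neural markers (4 genes) summed to 56.4 to 153 CPM in the cardiomyocyte stage, against 40.3 to 277 CPM in the progenitor stage, also with overlap. The neural sum was highest at D5, with a mean of 269 CPM. Blood and endoderm markers reached at most 28 CPM in any library. In these bulk libraries, fewer cells of a type and less RNA per cell cannot be told apart. Whether the RNA of fibroblast markers came from other cells or from the differentiating muscle cells cannot be told apart either, and the part of these markers in the results below was not tested.

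**Figure D1:**
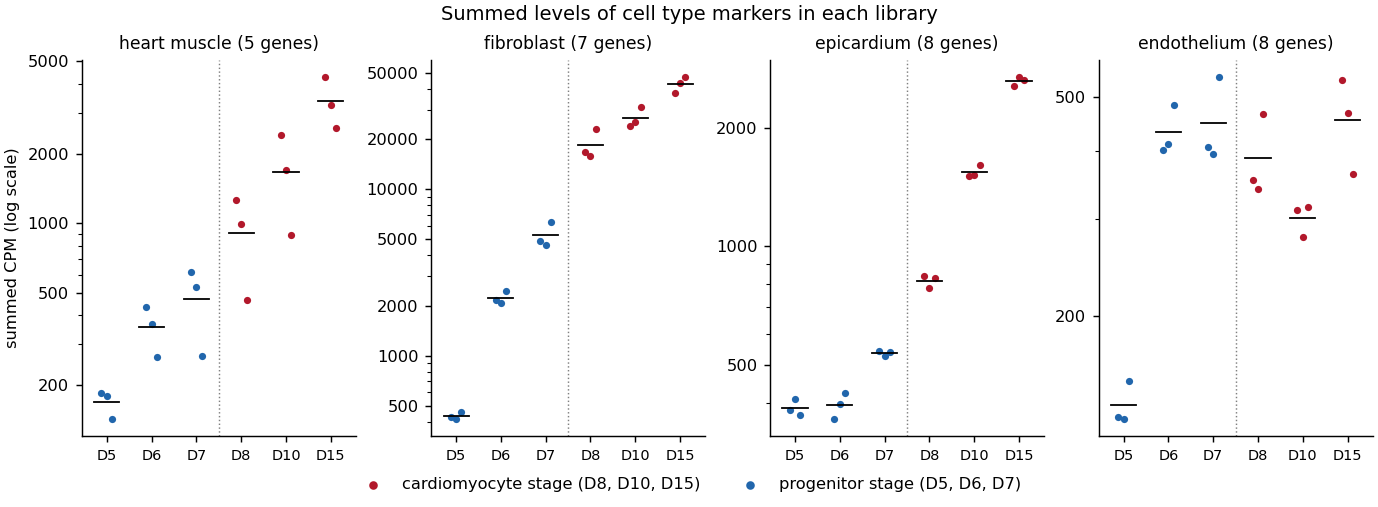
Summed CPM (vertical log axis) of the markers of 4 cell types in each library, by day, with the day's mean as a bar. The dotted line is the border between the progenitor stage (blue) and the cardiomyocyte stage (red). Fibroblast markers separated the stages without overlap, whereas the heart muscle sum spread 2.71-fold between libraries of 1 day at its widest.

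Of the 13116 genes, 5156 (39.3%) were called higher and 4955 (37.8%) lower in the cardiomyocyte stage, which makes 10111 (77.1%) in either direction, and 3005 (22.9%) were not called. The numbers were near equal but the sizes were not. Among called genes the median difference was 0.80 for the higher and -0.48 for the lower. At least 2-fold differences numbered 2179 (16.6%) higher and 744 (5.67%) lower, and differences of over 8-fold 582 higher and 81 lower. A stricter measure, that all 9 libraries of a stage lie above all 9 of the other, held for 1137 genes (8.67%) higher and 1079 (8.23%) lower. Most called genes therefore overlapped between the stages in at least 1 library. Levels tended to run on through the stages: 69.6% of the genes called higher had their highest day mean at D15 and 7.49% at D8, and 57.2% of those called lower had it at D5 and 13.3% at D7. Between the neighbouring days D8 and D7 alone, 1648 genes (12.6%) were called higher and 1520 (11.6%) lower in the same fit.

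**Figure D2:**
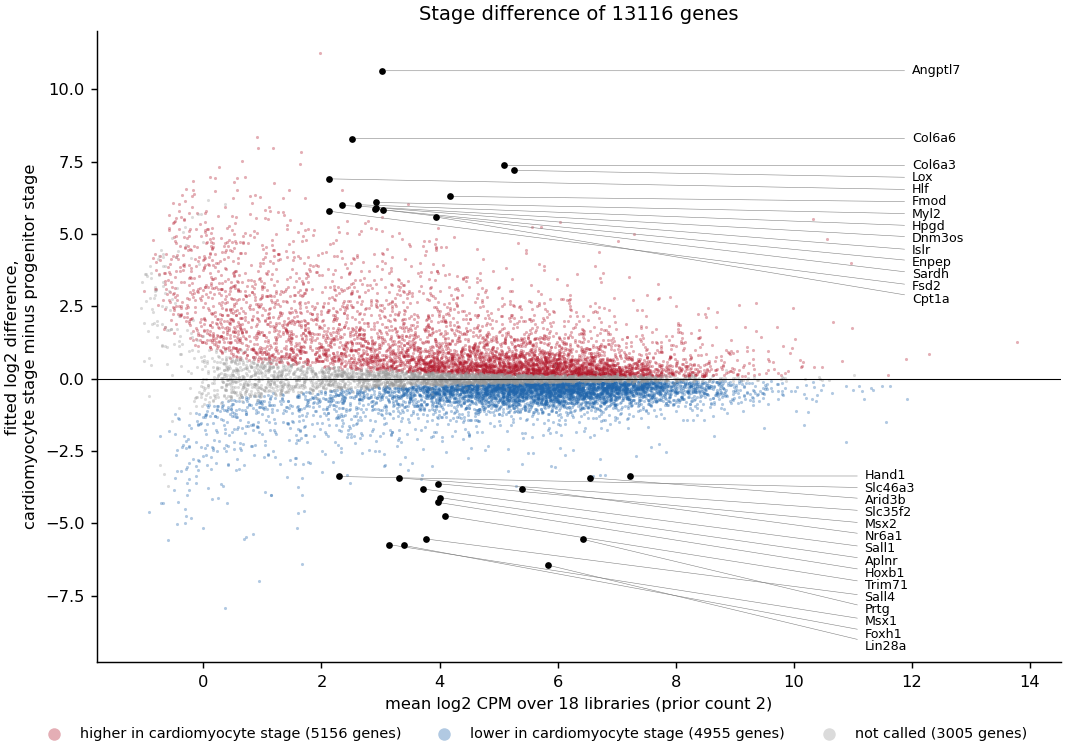
Fitted log2 difference, cardiomyocyte stage minus progenitor stage (vertical), against mean log2 CPM over the 18 libraries (horizontal), 1 point per gene, for 13116 genes. Labelled are the leading rises and falls that the text describes. Points reach further from 0 above the line than below it: 582 genes were called over 8-fold higher and 81 over 8-fold lower.

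The rises that lead among genes of moderate level without overlap between stages held genes of the matrix, of muscle and of oxidation. Col6a3, a chain of collagen VI (chr1:90765923-90843971, minus strand, GRCm38), had 118, 527 and 699.6 CPM in the cardiomyocyte stage, against 0, 7.65 and 10.5 CPM in the progenitor stage (log2 difference 7.37 ± 0.12, adjusted p = 4.84e-19). Lox, the lysyl oxidase that cross-links collagen and elastin, had 117, 366 and 1777 CPM in the cardiomyocyte stage, against 0.291, 3.52 and 15.6 CPM in the progenitor stage (log2 difference 7.20 ± 0.11, adjusted p = 1.19e-20). In both, every cardiomyocyte-stage library lay above every progenitor-stage one. Cpt1a, which loads fatty acids for entry into mitochondria, had 26.04, 127 and 258 CPM in the cardiomyocyte stage and 0, 2.14 and 7.29 CPM in the progenitor stage (log2 difference 5.58 ± 0.11, adjusted p = 1.77e-24). Sardh, the mitochondrial sarcosine dehydrogenase, had 16.5, 66.3 and 133 CPM in the cardiomyocyte stage and 0.1398, 0.793 and 3.72 CPM in the progenitor stage (log2 difference 5.83 ± 0.13, adjusted p = 3.99e-25). Hlf, a PAR bZIP transcription factor, had 5.66, 58.7 and 98.3 CPM in the cardiomyocyte stage and 0, 0.154 and 1.26 CPM in the progenitor stage (log2 difference 6.90 ± 0.23, adjusted p = 5.15e-20). Fmod (fibromodulin), Enpep (the aminopeptidase that cleaves angiotensin II), Hpgd (which inactivates prostaglandins), Dnm3os (the host transcript of 2 microRNA genes, antisense to Dnm3) and Myl2, the ventricular regulatory light chain, differed by 6.29 ± 0.27, 5.86 ± 0.21, 6.01 ± 0.20, 5.98 ± 0.18 and 6.09 ± 0.50. Like those above, each of these was higher in every cardiomyocyte-stage library. A further 4 had no count on at least 1 progenitor day, so that the fitted value depends on a prior count: Angptl7 had 8660 reads in the cardiomyocyte stage and 27 in the progenitor stage, Col6a6 15218 and 33, Islr 2015 and 145, and Fsd2 1221 and 78 in the same order of stages.

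The 15 falls that lead were mostly regulators of early embryonic cells. Lin28a, the let-7 antagonist (chr4:134003330-134018841, minus strand, GRCm38), had 0.177, 7.597 and 77.3 CPM in the cardiomyocyte stage, against 178, 522 and 1060.0 CPM in the progenitor stage (log2 difference -6.44 ± 0.07, adjusted p = 6.51e-33). Sall4, a zinc finger factor of pluripotent and early cells, had 0, 1.996 and 22.8 CPM in the cardiomyocyte stage, against 29.5, 71.96 and 139.6 CPM in the progenitor stage (log2 difference -5.54 ± 0.12, adjusted p = 4.17e-26). Trim71, a let-7 target and the counterpart of the worm gene lin-41, had 0.16002, 3.63 and 30.2 CPM in the cardiomyocyte stage, against 38.6, 77.2 and 138 CPM in the progenitor stage (log2 difference -4.74 ± 0.14, adjusted p = 6.23e-19). None of the 3 overlapped between the stages, and the day means of each were lower on every later day. Without D15 the differences of Sall4 and Trim71 were -3.38 and -3.09. Nr6a1, a nuclear receptor that silences pluripotency genes, had 2.13, 8.29 and 52.3 CPM in the cardiomyocyte stage and 118, 156 and 208 CPM in the progenitor stage (log2 difference -3.80 ± 0.088, adjusted p = 2.03e-20). Foxh1, the forkhead partner of SMADs in Nodal signalling, had 0, 0.863 and 9.44 CPM in the cardiomyocyte stage and 18.1, 75.4 and 201 CPM in the progenitor stage (log2 difference -5.76 ± 0.13, adjusted p = 6.50e-25). Prtg, Msx1, Msx2, Sall1, Aplnr (the apelin receptor), Arid3b, Slc35f2, Slc46a3 and Hand1 differed by -5.55 ± 0.066, -5.73 ± 0.31, -3.63 ± 0.15, -3.81 ± 0.13, -4.11 ± 0.18, -3.43 ± 0.048, -3.43 ± 0.14, -3.38 ± 0.17 and -3.36 ± 0.11, and those of Arid3b and Hand1 were -2.16 and -1.92 without D15. Eomes, a T-box factor of early mesoderm, had no read in the cardiomyocyte stage and 145 in the progenitor stage, so that it was at least 42.8-fold lower with the floor of 3 counts taken over the 9 cardiomyocyte-stage libraries together. The largest remaining fall, that of Hoxb1, is given with the genes that step at the border.

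Genes of the contractile apparatus were higher in the cardiomyocyte stage, but their replicate spread was wide. All 14 thick filament and M band genes were called higher, where 39.3% of all genes were, with a median difference of 3.25 against 0.01 over all genes tested. In the thin filament 10 of 13 were higher and 2 lower (median 1.35), and at the Z disc 13 of 16 were higher and none lower (median 2.39). Myh6, the fast cardiac myosin heavy chain, had 185, 939 and 2805 CPM in the cardiomyocyte stage, against 6.68, 31.6 and 158 CPM in the progenitor stage (log2 difference 4.99 ± 0.41, adjusted p = 9.93e-08). Tnni3, the troponin I of the mature heart, had 8.08, 81.7 and 372 CPM in the cardiomyocyte stage, against 0.2796, 0.765 and 8.79 CPM in the progenitor stage (log2 difference 6.04 ± 0.50, adjusted p = 9.37e-08). Tnnt2, cardiac troponin T, had 226, 565 and 1049 CPM in the cardiomyocyte stage, against 107, 209 and 372 CPM in the progenitor stage (log2 difference 1.41 ± 0.19, adjusted p = 1.62e-05). Myh6 separated the stages, whereas Tnni3 and Tnnt2 overlapped in at least 1 library. The SE of Myh6 and Tnni3 were several times that of Col6a3 or Lin28a, and that of Tnnt2 was also larger than both. Libraries of 1 day differed up to 2.71-fold in the summed heart muscle markers, against at most 1.16-fold in the epicardium sum. In the heart muscle sum the first-listed library was highest and the third-listed lowest on 6 of 6 days, an order that the fit did not take up. Des (desmin), the intermediate filament of muscle, had 206, 257 and 311 CPM in the cardiomyocyte stage and 24.3, 53.5 and 157 CPM in the progenitor stage, without overlap (log2 difference 2.17 ± 0.063, adjusted p = 2.20e-18). Myom2, an M band protein of mature fibres, reached 37.1 ± 12.3 CPM at D15 (SD, n = 3), against 1.199 ± 0.0349 CPM at D10 and less on every earlier day. Acta1, the skeletal actin also made in embryonic hearts, went against its list with 2.12, 9.06 and 12.1 CPM in the cardiomyocyte stage and 15.9, 27.3 and 145 CPM in the progenitor stage (log2 difference -2.52 ± 0.13, adjusted p = 1.40e-13), a difference of -1.66 without D5. Tpm2, a tropomyosin, had 109.9, 114 and 146 CPM in the cardiomyocyte stage and 106, 137 and 153 CPM in the progenitor stage (log2 difference -0.13 ± 0.041, adjusted p = 0.00577), a call that was lost without D15 (adjusted p = 0.129) and without D5 (adjusted p = 0.104).

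Promoters of muscle genes hold known sites of 2 heart factors, SRF at the CArG box and MEF2 at its A/T-rich site, and 3 are shown as examples of genes of the sarcomere. The stretches are the 120 bases before the annotated start, 5′ to 3′ on the gene's strand, from RefSeq on GRCm38.p6, with matches in capitals. They lie at chr2:114052876-114052995 (minus strand), chr11:5898783-5898902 (minus strand) and chr3:123034988-123035107 (minus strand).
Actc1: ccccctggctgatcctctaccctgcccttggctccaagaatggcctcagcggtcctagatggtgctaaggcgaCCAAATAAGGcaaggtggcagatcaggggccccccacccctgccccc
Myl7: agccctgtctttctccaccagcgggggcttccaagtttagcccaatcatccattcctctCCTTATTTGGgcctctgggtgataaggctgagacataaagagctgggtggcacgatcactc
Myoz2: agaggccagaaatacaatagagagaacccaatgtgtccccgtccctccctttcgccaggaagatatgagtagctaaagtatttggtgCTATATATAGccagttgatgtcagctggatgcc
The first 2 carry a CArG box and the last a MEF2 site. The CArG box lay, on either strand, in 1.63% of all 32851 RefSeq promoters of 300 bases (250 before and 50 after the start), and in 3 of 15 thick filament promoters, 17.6% of 17 thin filament and 21.1% of 19 Z disc promoters. The MEF2 site lay in 3.19% of all promoters in 26.3% of those of the Z disc, in 13.3% of those of the thick filament and in 0 of 17 of the thin filament. These 3 genes were chosen after values and promoters had been seen. Actc1, cardiac actin, had 289, 857 and 2248 CPM in the cardiomyocyte stage and 71.8, 151 and 416 CPM in the progenitor stage (log2 difference 2.45 ± 0.30, adjusted p = 6.22e-06). Myl7, the atrial regulatory light chain, had 119, 601 and 1662 CPM in the cardiomyocyte stage and 34.6, 73.5 and 262 CPM in the progenitor stage (log2 difference 2.75 ± 0.31, adjusted p = 2.87e-06). Myoz2, a Z disc protein, had 1802 reads in the cardiomyocyte stage, nearly all at D15, and none in the progenitor stage, so that it was at least 678-fold higher when the floor of 3 counts is taken over the 9 progenitor-stage libraries together.

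Most excitation genes were higher as well. Of 17 calcium cycling genes 15 were called higher and 1 lower, with a median difference of 1.77. Cacna1h, a T-type calcium channel, had 26.2, 52.1 and 105 CPM in the cardiomyocyte stage and 1.398, 3.49 and 11.5 CPM in the progenitor stage (log2 difference 3.73 ± 0.23, adjusted p = 3.26e-09). S100a1, a calcium sensor of the heart, had 17.3, 28.4 and 89.5 CPM in the cardiomyocyte stage and 9.02, 12.9 and 14.6 CPM in the progenitor stage (log2 difference 1.59 ± 0.091, adjusted p = 1.06e-15). Both separated the stages, and the difference of S100a1 was 1.03 without D15. The exception was Cacna2d1, an auxiliary calcium channel subunit, with 28.6, 35.2 and 43.3 CPM in the cardiomyocyte stage and 56.9, 81.9 and 105 CPM in the progenitor stage, again without overlap (log2 difference -1.16 ± 0.086, adjusted p = 1.62e-10). Of 19 channel and junction genes 14 were called higher (73.7%, against 39.3% of all genes) and 5 lower (26.3%, against 37.8%) (median 1.84). Their summed level was 1994 ± 119 CPM at D8 and 1597 ± 222 CPM at D15 (SD, n = 3 each), while that of the thick filament list was 1502 ± 698 CPM at D8 and 5491 ± 1524 CPM at D15. Hcn4, the pacemaker channel, had 117, 142 and 179 CPM in the cardiomyocyte stage and 12.2, 56.4 and 111 CPM in the progenitor stage (log2 difference 1.78 ± 0.093, adjusted p = 2.54e-11), a difference of 0.89 without D5. Gja1, the main connexin of working myocardium, had 274, 307 and 356 CPM in the cardiomyocyte stage and 357, 377 and 470.2 CPM in the progenitor stage (log2 difference -0.35 ± 0.035, adjusted p = 4.64e-10). Pkp2, a desmosome protein, had 53.96, 66.9 and 86.3 CPM in the cardiomyocyte stage and 87.3, 107 and 219 CPM in the progenitor stage (log2 difference -0.94 ± 0.052, adjusted p = 6.92e-16). Both were lower in every cardiomyocyte-stage library, and the difference of Pkp2 was -0.61 without D5. Atrial genes counted 11 higher of 12 (91.7%), and ventricular genes 5 higher (62.5%) and 3 lower (37.5%) of 8. Over all genes 39.3% were higher and 37.8% lower. In the ventricular list Lbh, a limb and heart cofactor, had 268, 726 and 1085 CPM in the cardiomyocyte stage and 25.5, 78.9 and 190.4 CPM in the progenitor stage, without overlap (log2 difference 3.27 ± 0.18, adjusted p = 1.17e-09). Nppb, the brain natriuretic peptide gene, had 0, 0.5295 and 4.13 CPM in the cardiomyocyte stage and 1.38, 4.802 and 7.56 CPM in the progenitor stage, lower with overlap (log2 difference -2.48 ± 0.30, adjusted p = 1.04e-08).

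Cardiac transcription factors did not move as 1 group. Of 20, 12 were called higher (60.0%, against 39.3% of all genes) and 6 lower (30.0%, against 37.8%), with a median of 0.53. Tbx5, the T-box factor of the first heart field, had 31.1, 60.6 and 86.3 CPM in the cardiomyocyte stage and 6.14, 13.3 and 35.7 CPM in the progenitor stage, with overlap (log2 difference 2.11 ± 0.22, adjusted p = 9.63e-07). The count cannot separate the cell's own gene from any transgene that holds the same sequence. Nkx2-5 had 1.796, 6.68 and 14.8 CPM in the cardiomyocyte stage and 0.136, 1.39 and 3.28 CPM in the progenitor stage (log2 difference 2.43 ± 0.44, adjusted p = 0.000131). Zfpm2, the GATA cofactor FOG2, had 60.1, 83.1 and 90.9 CPM in the cardiomyocyte stage and 9.82, 37.1 and 46.2 CPM in the progenitor stage, without overlap (log2 difference 1.54 ± 0.057, adjusted p = 3.58e-20), and a difference of 0.94 without D5. Nkx2-5 stayed at a low level throughout. Gata4 had 227, 451 and 537 CPM in the cardiomyocyte stage and 133, 342 and 455 CPM in the progenitor stage (log2 difference 0.35 ± 0.084, adjusted p = 0.00173), a difference that was 0.70 without D15 and, no longer called, -0.091 without D5 (adjusted p = 0.348). Mef2c was not called (adjusted p = 0.194). Tbx3, which holds back chamber muscle genes, had 1.62, 2.76 and 10.4 CPM in the cardiomyocyte stage and 4.76, 25.8 and 119.6 CPM in the progenitor stage, lower with overlap (log2 difference -2.96 ± 0.16, adjusted p = 5.71e-14). Among 16 progenitor and second heart field genes 10 were called lower, where 37.8% of all genes were, and 5 higher (median -0.88). Isl1, the marker of that field, had 1.12, 6.19 and 11.3 CPM in the cardiomyocyte stage and 3.26, 9.34 and 17.8 CPM in the progenitor stage (log2 difference -0.87 ± 0.23, adjusted p = 0.00234), but the difference of D8 minus D7 was 0.43 ± 0.38 (adjusted p = 0.453), and the call was lost without D15 (adjusted p = 0.365) and without D5 (adjusted p = 0.0609). Wnt11, a ligand of the outflow region, was among the 5 genes of that list that rose, with 37.1, 41.5 and 70.8 CPM in the cardiomyocyte stage and 2.62, 23.9 and 36.6 CPM in the progenitor stage (log2 difference 1.86 ± 0.078, adjusted p = 6.92e-19) and a difference of 0.76 without D5.

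Regulators of developmental timing were lower. All 9 heterochronic genes were called lower, with a median difference of -1.44, and 9 of 10 tested HOX genes were lower (median -2.53). Besides Lin28a, its paralogue Lin28b had 1.41, 20.1 and 55.8 CPM in the cardiomyocyte stage and 74.005, 106 and 148 CPM in the progenitor stage (log2 difference -3.20 ± 0.078, adjusted p = 1.19e-24). Igf2bp1, an RNA-binding protein and let-7 target, had 88.7, 269.5 and 411 CPM in the cardiomyocyte stage and 438, 660.3 and 678 CPM in the progenitor stage (log2 difference -1.44 ± 0.039, adjusted p = 2.05e-23). Neither overlapped between the stages, and without D15 their differences were -1.76 and -0.85. Of 39 HOX genes listed, 29 did not pass the filter. Nuclear factor I genes ran the other way, all 4 called higher (median 3.79). Nfib had 61.2, 235 and 523 CPM in the cardiomyocyte stage and 2.18, 9.34 and 21.1 CPM in the progenitor stage (log2 difference 4.70 ± 0.06, adjusted p = 3.00e-31). Nfic had 72.03, 151 and 259.8 CPM in the cardiomyocyte stage and 4.91, 19.9 and 32.7 CPM in the progenitor stage (log2 difference 3.24 ± 0.058, adjusted p = 1.32e-27). Nfia had 50.8, 116 and 242 CPM in the cardiomyocyte stage and 10.4, 18.5 and 26.7 CPM in the progenitor stage (log2 difference 2.66 ± 0.069, adjusted p = 5.43e-23). These 3 transcription factors separated the stages and their day means were higher on every later day.

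The 2 tested readouts of Hedgehog signalling were lower in the cardiomyocyte stage. Ptch1, the Hedgehog receptor and target, had 7.84, 13.4 and 18.7 CPM in the cardiomyocyte stage and 14.7, 43.5 and 56.04 CPM in the progenitor stage (log2 difference -1.34 ± 0.16, adjusted p = 8.43e-07), with overlap. Hhip, a decoy receptor and target, had 19 reads in the cardiomyocyte stage, none of them at D15, against 179 in the progenitor stage (adjusted p = 1.64e-10). Gli1, another readout, had too few reads to be tested, with 8 reads in the cardiomyocyte stage against 45 in the progenitor stage, a ratio of 0.191 (95% interval 0.0776 to 0.408, counting error only). Ptch1 and Hhip together averaged 48.7 ± 8.61, 49.15 ± 1.11, 21.5 ± 3.97, 14.9 ± 3.27, 13.6 ± 4.79 and 12.7 ± 5.53 CPM over D5, D6, D7, D8, D10 and D15 (SD, n = 3 each), with the largest step between neighbouring days inside the progenitor stage, between D6 and D7. Gli2 had 36.97, 56.3 and 71.4 CPM in the cardiomyocyte stage and 71.9, 113 and 119.7 CPM in the progenitor stage, without overlap (log2 difference -0.98 ± 0.049, adjusted p = 4.27e-17). Gli3 had 92.7, 110.1 and 124 CPM in the cardiomyocyte stage and 86.5, 159 and 222 CPM in the progenitor stage, with overlap (log2 difference -0.48 ± 0.067, adjusted p = 2.46e-06), and a difference of -0.27 without D5. Of 13 other components 5 were higher (38.5%, against 39.3% of all genes) and 6 lower (46.2%, against 37.8%), with a median of -0.072. Gas1, a co-receptor, had 115, 314 and 658 CPM in the cardiomyocyte stage and 85.2, 108 and 148 CPM in the progenitor stage (log2 difference 1.41 ± 0.077, adjusted p = 6.49e-11), and a difference of 0.91 without D15.

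Most genes of energy metabolism were higher, glycolysis included, but their courses differed. Of 20 fatty acid oxidation genes 17 were called higher and none lower (median 0.86). Nuclear-encoded respiratory chain subunits counted 69 higher and 3 lower of 81 (median 0.43), and the tricarboxylic acid cycle 12 higher and none lower of 13 (median 0.26). Glycolysis counted 17 higher and 1 lower of 18 (median 1.17). Hadha, a subunit of the trifunctional protein of fatty acid oxidation, had 162, 201 and 334 CPM in the cardiomyocyte stage and 86.2, 121 and 129 CPM in the progenitor stage (log2 difference 0.95 ± 0.045, adjusted p = 1.79e-17). Ndufv3, a complex I subunit, had 69.4, 111 and 135 CPM in the cardiomyocyte stage and 29.4, 52.1 and 54.99 CPM in the progenitor stage (log2 difference 1.20 ± 0.057, adjusted p = 1.39e-17). Both separated the stages. The respiratory chain differed by little and was highest late: its median member stood at -0.26 at D5, -0.05 at D8 and 0.56 at D15 on the log2 scale relative to its own 6-day mean. One symbol called lower in that list, Cox4nb, is an older name of Emc8, a subunit of a membrane protein complex of the endoplasmic reticulum.

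The summed level of the glycolysis list averaged 5752 ± 113, 4707 ± 219, 3144 ± 74.1, 4540 ± 1163, 8060.0 ± 849.7 and 8795 ± 1259 CPM over D5, D6, D7, D8, D10 and D15 (SD, n = 3 each), lowest at D7, whereas that of the tricarboxylic acid cycle stayed between 2011 and 2104 CPM until D8 and reached 3350.0 ± 309 CPM at D15. Tpi1, triose phosphate isomerase, had 410.3, 1126 and 1447 CPM in the cardiomyocyte stage and 173, 190.0 and 212 CPM in the progenitor stage (log2 difference 2.29 ± 0.10, adjusted p = 7.57e-11). Aldoc, an aldolase, had 15.6, 50.2 and 99.02 CPM in the cardiomyocyte stage and 1.75, 4.36 and 12.04 CPM in the progenitor stage (log2 difference 3.02 ± 0.14, adjusted p = 2.29e-13). Both were higher in every cardiomyocyte-stage library. The glucose transporter Slc2a1 went the other way, with 429, 709.7 and 831 CPM in the cardiomyocyte stage and 946, 2526 and 3269 CPM in the progenitor stage, lower in every cardiomyocyte-stage library (log2 difference -1.61 ± 0.08, adjusted p = 7.77e-11). Genes induced by low oxygen rose, 12 of 13 with a median of 1.71, and Slc2a1, which is on both lists, was the exception. Pdk1, which shuts pyruvate out of mitochondria, had 95.4, 252 and 339 CPM in the cardiomyocyte stage and 8.73, 20.6 and 35.7 CPM in the progenitor stage (log2 difference 3.45 ± 0.13, adjusted p = 1.43e-11). P4ha1, a collagen prolyl hydroxylase, had 221, 395 and 481 CPM in the cardiomyocyte stage and 75.3, 106 and 181 CPM in the progenitor stage (log2 difference 1.70 ± 0.066, adjusted p = 2.92e-14). Both separated the stages. Among mitochondrial regulators Ppargc1a, the coactivator PGC-1 alpha, had 12.9, 34.2 and 70.8 CPM in the cardiomyocyte stage and 0.1398, 2.604 and 9.53 CPM in the progenitor stage (log2 difference 4.30 ± 0.36, adjusted p = 1.00e-07). Esrra, its nuclear receptor partner, had 11.3, 23.5 and 43.95 CPM in the cardiomyocyte stage and 7.199, 9.63 and 12.7 CPM in the progenitor stage (log2 difference 1.24 ± 0.091, adjusted p = 3.58e-13), and a difference of 0.80 without D15. Tfam, which packs mitochondrial DNA, and Nrf1, a factor for respiratory genes, went the other way by -0.31 ± 0.047 and -0.32 ± 0.055; the difference of Tfam was -0.14 without D15 and -0.17 without D5.

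Most genes for the synthesis of sterols, serine and charged tRNA were lower, with called steps at the stage border for most of them. All 20 cholesterol genes were called lower (median -0.97), and 19 of them were also called lower at D8 against D7, where 11.6% of all genes were. Hmgcs1, the first enzyme committed to the pathway, averaged 1521 ± 44.4, 1303 ± 92.2, 1883 ± 104, 1184 ± 65.7, 699.6 ± 19.4 and 436 ± 7.51 CPM over D5, D6, D7, D8, D10 and D15 (SD, n = 3 each; log2 difference -1.12 ± 0.035, adjusted p = 6.51e-22). It was highest at D7 and lower on each later day.

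Serine and one-carbon enzymes counted 10 lower and 1 higher of 12 (median -0.99). Psat1, of serine synthesis, averaged 224 ± 24.8, 101 ± 13.1, 148 ± 18.1, 35.6 ± 6.74, 33.05 ± 1.36 and 62.5 ± 5.51 CPM over D5, D6, D7, D8, D10 and D15 (log2 difference -1.84 ± 0.073, adjusted p = 2.08e-15). It did not overlap between the stages, and D8 minus D7 was -2.06 ± 0.13 (adjusted p = 2.57e-10). Aldh1l2, a mitochondrial folate enzyme, was the member called higher (log2 difference 2.95 ± 0.16, adjusted p = 5.66e-13), although D8 minus D7 was -1.15 ± 0.24, and without D15 the difference was 1.86. Of 17 cytosolic tRNA synthetases, which charge tRNAs with amino acids, 16 were called lower (median -0.69), 12 of them without overlap, against 8.23% of all genes, and 13 were also called lower at the border. Gars, for glycine, averaged 348 ± 5.23, 215 ± 8.38, 317 ± 31.9, 178 ± 10.01, 150.1 ± 6.14 and 179 ± 11.3 CPM over the same 6 days (log2 difference -0.77 ± 0.04, adjusted p = 1.26e-16). Iars, for isoleucine, averaged 333 ± 12.97, 203 ± 1.204, 293 ± 27.1, 168 ± 15.5, 135 ± 4.76 and 172 ± 12.8 CPM (log2 difference -0.78 ± 0.042, adjusted p = 2.64e-16). Both had a dip at D6, a return at D7, a drop at D8 and a slight return at D15. The ATF4 list, the amino acid and stress response, split. Of its 14 genes 9 were lower (64.3%, against 37.8% of all genes) and 4 higher (28.6%, against 39.3%), with a median of -0.71. Asns, asparagine synthetase, averaged 185 ± 5.87, 92.8 ± 9.11, 199.7 ± 27.3, 38.6 ± 2.72, 14.5 ± 2.77 and 43.1 ± 9.1999 CPM (log2 difference -2.38 ± 0.078, adjusted p = 1.02e-16). Cebpb rose instead, with 3.195, 7.08 and 35.3 CPM in the cardiomyocyte stage and 0.419, 1.46 and 3.42 CPM in the progenitor stage (log2 difference 2.62 ± 0.17, adjusted p = 3.24e-14).

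**Figure D3:**
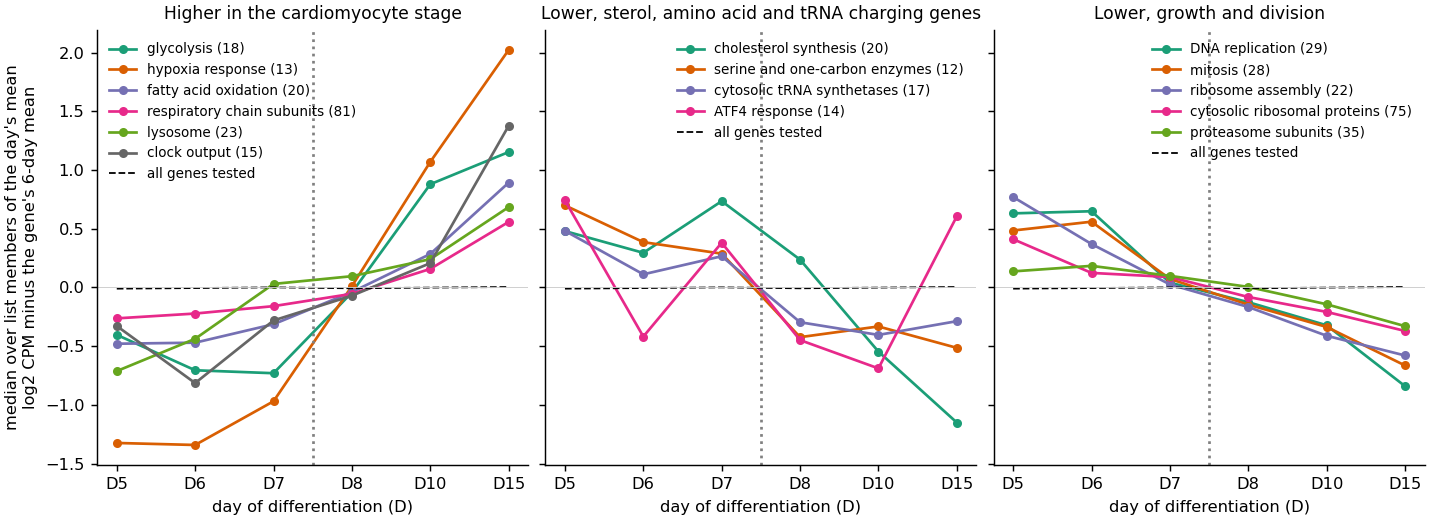
Median over the members of a list of the day's mean log2 CPM minus the gene's own 6-day mean (vertical), by day (horizontal), with the number of genes in brackets, the median of all genes tested as a dashed line, and the stage border dotted. Cholesterol synthesis peaked at D7 (0.74) and ended at -1.15 at D15, and tRNA synthetases stood at 0.27 at D7 and -0.30 at D8.

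The promoters of 3 of these genes are shown because they hold the element TGATGNAA, a letter form of the site bound by ATF4 with C/EBP factors, which was looked for after the values of the lists were known. The 120 bases before the RefSeq start are given as above, at chr6:55037881-55038000 (plus strand), chr15:11399659-11399778 (minus strand) and chr6:7693210-7693329 (minus strand), with the element in capitals on whichever strand it lies.
Gars: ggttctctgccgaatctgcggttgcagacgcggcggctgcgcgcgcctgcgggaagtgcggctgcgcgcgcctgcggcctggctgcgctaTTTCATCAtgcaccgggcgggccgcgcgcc
Tars: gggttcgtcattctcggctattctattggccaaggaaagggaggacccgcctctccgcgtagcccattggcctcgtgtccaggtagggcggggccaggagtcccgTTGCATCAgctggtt
Asns: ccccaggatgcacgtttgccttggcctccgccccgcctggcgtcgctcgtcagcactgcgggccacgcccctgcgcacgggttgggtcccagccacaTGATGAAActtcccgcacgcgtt
The element lay in 3.97% of all 32851 promoters, in 5 of 9 synthetase promoters in the table (55.6%) and in 6 of 16 promoters of the ATF4 list (37.5%), but in 0 of 11 of the serine and one-carbon list and 1 of 16 of the cholesterol list (6.25%). Tars, for threonine, was chosen for its promoter and had 77.7, 89.5 and 116 CPM in the cardiomyocyte stage and 129.7, 152 and 169 CPM in the progenitor stage (log2 difference -0.71 ± 0.043, adjusted p = 4.01e-15). A match in these letters is a description of the window and not a bound site.

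Cell division genes were lower, by less than 2-fold for most. All 28 mitosis genes were called lower (median -0.76) and 28 of 29 DNA replication genes (median -0.91). Mcm5, of the replicative helicase, had 83.5, 156 and 175 CPM in the cardiomyocyte stage and 189.9, 325 and 379 CPM in the progenitor stage (log2 difference -1.09 ± 0.045, adjusted p = 4.44e-19). Bub1, a spindle checkpoint kinase, had 74.97, 108 and 146 CPM in the cardiomyocyte stage and 149, 227 and 243 CPM in the progenitor stage (log2 difference -1.004 ± 0.042, adjusted p = 6.69e-19). Espl1, the separase that cuts sister chromatids free, had 49.8, 67.5 and 83.6 CPM in the cardiomyocyte stage and 96.5, 146 and 162 CPM in the progenitor stage (log2 difference -0.98 ± 0.049, adjusted p = 5.98e-17). None of the 3 overlapped between stages, and division genes were still read at D15, Espl1 at 54.4 ± 4.48 CPM (SD, n = 3). Tk1, a thymidine kinase, was the replication gene called higher, with 33.8, 41.8 and 53.4 CPM in the cardiomyocyte stage and 25.7, 35.5 and 49.5 CPM in the progenitor stage, with overlap (log2 difference 0.22 ± 0.07, adjusted p = 0.00565). Cell cycle brakes counted 13 higher and 2 lower of 16 (median 0.50). Rbl2, the retinoblastoma-like p130 of quiescent cells, had 19.4, 45.3 and 52.99 CPM in the cardiomyocyte stage and 5.31, 7.13 and 13.3 CPM in the progenitor stage (log2 difference 2.23 ± 0.082, adjusted p = 3.64e-20). Cdkn2b, the CDK inhibitor p15, had 2.905, 11.7 and 18.9 CPM in the cardiomyocyte stage and 0.306, 1.697 and 2.64 CPM in the progenitor stage (log2 difference 2.61 ± 0.20, adjusted p = 8.30e-13). Both separated the stages. D and E cyclins and their kinases counted 10 lower (71.4%, against 37.8% of all genes) and 2 higher (14.3%, against 39.3%) of 14.

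Many mitotic promoters carry CCAAT boxes and the cell cycle element TTTGAA, and 3 are shown for genes that fell together. The windows are the 120 bases before the start, at chr11:99024190-99024309 (minus strand), chr4:118437344-118437463 (minus strand) and chr15:102296173-102296292 (plus strand), with CCAAT (or its reverse ATTGG) and TTTGAA (or TTCAAA) in capitals.
Top2a: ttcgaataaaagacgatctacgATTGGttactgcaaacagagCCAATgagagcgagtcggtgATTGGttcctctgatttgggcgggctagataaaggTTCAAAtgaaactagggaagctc
Cdc20: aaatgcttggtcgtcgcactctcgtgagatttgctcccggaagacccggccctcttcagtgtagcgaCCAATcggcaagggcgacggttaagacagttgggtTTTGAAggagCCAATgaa
Espl1: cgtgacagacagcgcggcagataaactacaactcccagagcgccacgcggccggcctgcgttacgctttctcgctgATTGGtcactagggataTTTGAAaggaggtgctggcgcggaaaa
CCAAT lay in 82.6% of 23 mitosis promoters, 57.1% of 28 DNA replication promoters and 37.4% of all promoters. TTTGAA lay in 73.9%, 14.3% and 17.9% of the same sets, so that it was frequent in the mitosis promoters and not in those of replication. CCAAT was also frequent (81.2% of 16) in the promoters of the cholesterol list. Its share differed among lists that rose, with 72.2% of 18 clock promoters and 31.8% of 22 lysosome promoters. Top2a, which untangles chromosomes, had 508, 601 and 739 CPM in the cardiomyocyte stage and 688, 881 and 1041 CPM in the progenitor stage (log2 difference -0.52 ± 0.039, adjusted p = 4.12e-13). Cdc20, which activates the anaphase-promoting complex, had 51.01, 71.5 and 89.3 CPM in the cardiomyocyte stage and 95.05, 143 and 152 CPM in the progenitor stage (log2 difference -0.85 ± 0.046, adjusted p = 2.60e-16). Both were chosen for their promoters after values had been seen.

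Most genes of protein synthesis were lower, by less than 2-fold at the median of each list. Ribosome assembly factors were all called lower, 22 of 22 (median -0.78), as were 65 of 75 cytosolic ribosomal proteins with none higher (median -0.43) and 49 of 64 translation factors with 6 higher (median -0.34). The list of translation factors was gathered by symbol and also holds their regulators and the Argonaute genes, which are deposited under older Eif2c symbols. Fbl, the rRNA methylase fibrillarin, had 24.1, 33.3 and 46.7 CPM in the cardiomyocyte stage and 59.4, 68.7 and 94.7 CPM in the progenitor stage (log2 difference -1.05 ± 0.053, adjusted p = 5.32e-17). Nolc1, a nucleolar phosphoprotein, had 75.9, 84.3 and 96.000 CPM in the cardiomyocyte stage and 114, 159.8 and 228 CPM in the progenitor stage (log2 difference -0.90 ± 0.039, adjusted p = 1.33e-18). Rpl4, of the large subunit, had 862, 1089 and 1382 CPM in the cardiomyocyte stage and 1425, 1552 and 1989.7 CPM in the progenitor stage (log2 difference -0.57 ± 0.033, adjusted p = 1.04e-15). Every cardiomyocyte-stage library was below every progenitor-stage one for each of them. Eif2s1, the eIF2 alpha subunit, had 72.5, 93.8 and 122 CPM in the cardiomyocyte stage and 135, 165 and 213 CPM in the progenitor stage (log2 difference -0.85 ± 0.043, adjusted p = 4.88e-17). Eif2ak2, the kinase PKR that phosphorylates it, went the other way with 57.5, 62.1 and 70.98 CPM in the cardiomyocyte stage and 28.8, 38.4 and 51.1 CPM in the progenitor stage (log2 difference 0.68 ± 0.057, adjusted p = 6.47e-12). Both separated the stages.

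Genes of protein breakdown were mostly lower, while those of protein folding were divided. Proteasome subunits counted 30 lower and 3 higher of 35 (median -0.33). Psmc5, an ATPase of the cap, had 81.9, 123 and 155 CPM in the cardiomyocyte stage and 164, 205 and 225 CPM in the progenitor stage (log2 difference -0.75 ± 0.046, adjusted p = 9.08e-15). The chaperone list as a whole lay near the shares of all genes. Of its 70 genes 24 were higher (34.3%, against 39.3%) and 32 lower (45.7%, against 37.8%). Within it all 8 tested genes of the chaperonin ring that folds actin and tubulin were lower, a group singled out after its values were seen. Cct4, one of them, had 222, 313 and 389 CPM in the cardiomyocyte stage and 479, 523 and 641 CPM in the progenitor stage (log2 difference -0.88 ± 0.032, adjusted p = 3.06e-20). Hsp90ab1, the constitutive HSP90, had 2241, 3188 and 3897 CPM in the cardiomyocyte stage and 4373, 5216 and 5438 CPM in the progenitor stage (log2 difference -0.71 ± 0.031, adjusted p = 1.58e-18). Both were lower in every cardiomyocyte-stage library. Among those that rose was Dnajb4, a cochaperone, with 47.05, 63.2 and 105 CPM in the cardiomyocyte stage and 16.4, 28.5 and 40.8 CPM in the progenitor stage (log2 difference 1.26 ± 0.071, adjusted p = 7.97e-16). The muscle small heat shock protein Hspb7 had 40.2, 208 and 684 CPM in the cardiomyocyte stage and 1.68, 17.2 and 48.2 CPM in the progenitor stage, with overlap (log2 difference 4.33 ± 0.28, adjusted p = 7.28e-09).

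Chromatin and splicing regulators were mixed. Polycomb genes counted 13 lower (61.9%) and 6 higher (28.6%) of 21 and BAF remodeller subunits 15 lower (78.9%) and 2 higher (10.5%) of 19. Over all genes 37.8% were lower and 39.3% higher. Ezh2, the H3K27 methylase, had 51.7, 102 and 133 CPM in the cardiomyocyte stage and 129, 186 and 224 CPM in the progenitor stage (log2 difference -0.9998 ± 0.041, adjusted p = 3.56e-19). Cbx6, of the Polycomb family that reads that mark, had 68.9, 179 and 432 CPM in the cardiomyocyte stage and 45.1, 64.96 and 83.1 CPM in the progenitor stage (log2 difference 1.58 ± 0.061, adjusted p = 1.14e-16). Both overlapped in at least 1 library, and without D15 their differences were -0.63 and 0.98. Dnmt3a and Dnmt3b, the 2 de novo DNA methylases, moved in opposite directions, each without overlap. Dnmt3a had 376, 449.7 and 580.4 CPM in the cardiomyocyte stage and 81.6, 185 and 269 CPM in the progenitor stage (log2 difference 1.57 ± 0.05, adjusted p = 5.04e-20). Dnmt3b had 5.85, 9.67 and 28.5 CPM in the cardiomyocyte stage and 35.2, 63.6 and 106 CPM in the progenitor stage (log2 difference -2.32 ± 0.08, adjusted p = 7.15e-21). Tet2, which oxidises methylcytosine, had 49.3, 65.4 and 80.3 CPM in the cardiomyocyte stage and 14.5, 29.3 and 41.97 CPM in the progenitor stage (log2 difference 1.33 ± 0.072, adjusted p = 5.12e-16). Among splicing regulators 14 of 24 were lower and 6 higher, and the 6 were of the CELF, MBNL and RBFOX families, although Celf1 was among the lower. Mbnl1, which promotes adult splice forms, had 41.7, 57.8 and 106 CPM in the cardiomyocyte stage and 20.2, 28.4 and 33.8 CPM in the progenitor stage (log2 difference 1.20 ± 0.056, adjusted p = 1.08e-17). Rbfox1 had 6.64, 11.99 and 23.5 CPM in the cardiomyocyte stage and 0.291, 1.697 and 2.48 CPM in the progenitor stage (log2 difference 3.15 ± 0.19, adjusted p = 2.91e-15). Both separated the stages, as did Srsf7 in the other direction (log2 difference -0.76 ± 0.036, adjusted p = 1.94e-17).

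**Figure D4:**
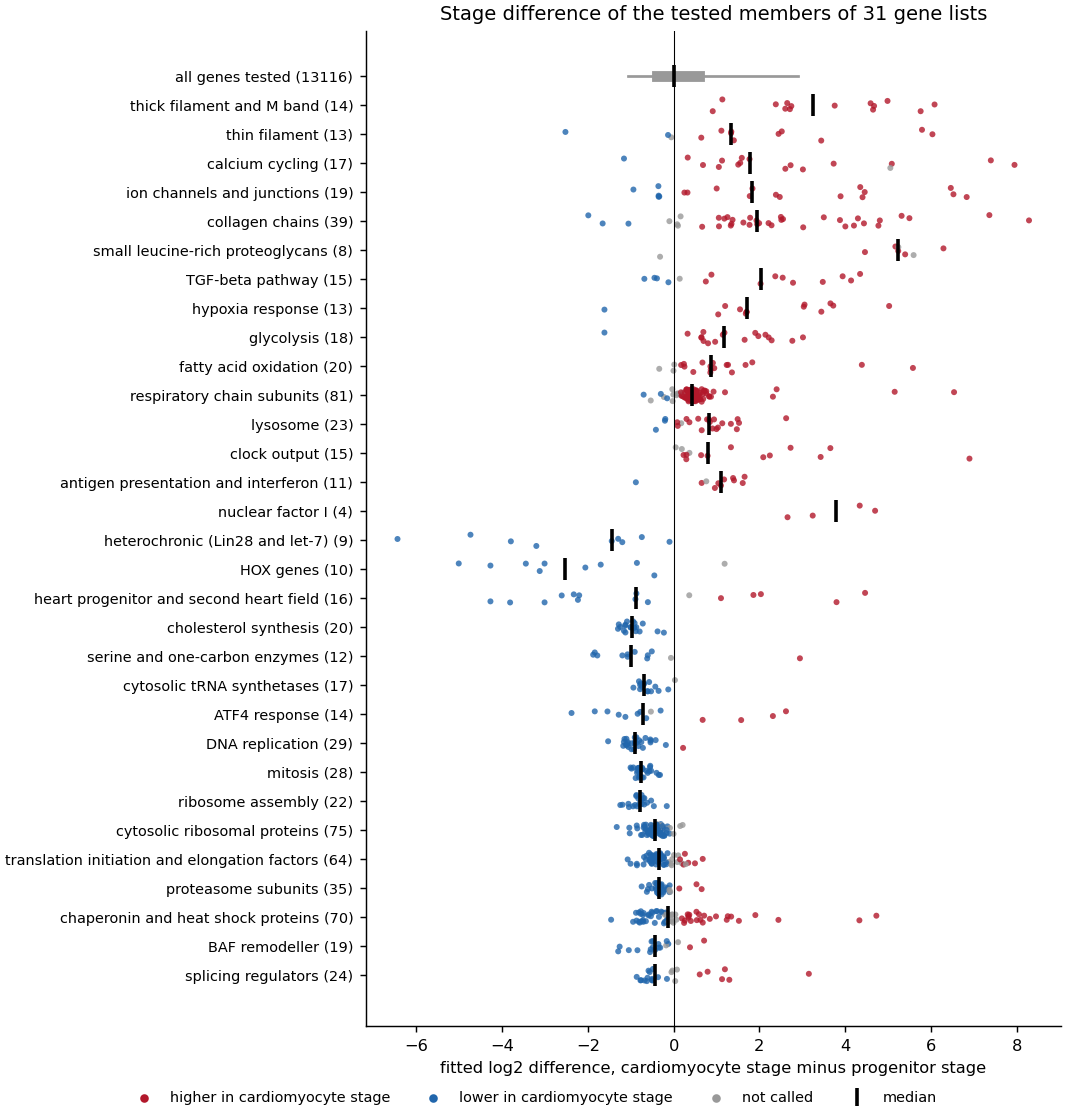
Fitted log2 difference, cardiomyocyte stage minus progenitor stage (horizontal), of each tested member of 31 gene lists, with the number of genes in brackets, called genes in red or blue, and the list's median as a black bar. The top row gives all 13116 genes as the middle 50% (thick) and the 5th to 95th percentile (thin). Members of the small ribosomal and mitosis differences cluster tightly below 0, while matrix and muscle members spread widely above it.

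Extracellular matrix genes held many of the largest differences. Collagen chains counted 32 higher and 3 lower of 39 (median 1.95), and processing and cross-linking enzymes 14 higher and 3 lower of 17 (median 1.18). Matricellular and elastic fibre genes counted 19 higher and 2 lower of 21 (median 1.61) and laminins 10 higher and 1 lower of 11 (median 0.80). Col3a1 averaged 17.2 ± 1.46, 372 ± 41.2, 1100.4 ± 154, 5079 ± 1041, 10260.2 ± 1542 and 12532 ± 1305 CPM over D5, D6, D7, D8, D10 and D15 (SD, n = 3 each; log2 difference 5.50 ± 0.11, adjusted p = 1.04e-14). Dcn (decorin), a proteoglycan that binds collagen fibrils, averaged 1.49 ± 0.397, 22.2 ± 2.96, 28.9 ± 4.57, 80.9 ± 18.4, 410.3 ± 85.99 and 2226 ± 199.6 CPM (log2 difference 5.40 ± 0.13, adjusted p = 5.10e-14). Fbln2, an elastic fibre protein, had 343, 703 and 1025 CPM in the cardiomyocyte stage and 49.9, 79.3 and 185 CPM in the progenitor stage (log2 difference 2.83 ± 0.049, adjusted p = 2.02e-27). None of the 3 overlapped between the stages, and their day means were already higher at D7 than at D5. Among the exceptions were genes of the loose matrix of hyaluronan and versican known from the early heart. Has2, which makes hyaluronan, averaged 106 ± 11.6, 100.4 ± 6.39, 125 ± 7.18, 155 ± 8.39, 39.98 ± 7.56 and 0.443 ± 0.407 CPM (log2 difference -2.94 ± 0.11, adjusted p = 1.71e-17). Vcan (versican), which binds it, averaged 414 ± 45.8, 363 ± 32.99, 312 ± 46.6, 438 ± 46.8, 305 ± 70.2 and 78.5 ± 21.2 CPM (log2 difference -0.72 ± 0.12, adjusted p = 7.15e-05). Both were highest at D8 and lowest at D15, and without D15 the difference of Has2 was -0.47 and that of Vcan 0.032 (adjusted p = 0.81). Lama1, a laminin of early basement membranes, was lower (log2 difference -1.56 ± 0.13, adjusted p = 1.00e-07), a call also lost without D15 (adjusted p = 0.564). Lama2, of muscle, had 31.8, 66.5 and 141 CPM in the cardiomyocyte stage and 5.03, 11.8 and 17.9 CPM in the progenitor stage (log2 difference 2.73 ± 0.083, adjusted p = 3.25e-22). The fibroblast marker sum moved with these genes, since Col1a1, Col1a2, Col3a1 and Dcn are part of it, and what the number of such cells adds to these differences was not tested.

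Among markers of other heart layers those of the epicardium were higher. All 8 epicardium genes were called higher (median 2.98). Wt1, the epicardial zinc finger factor, had 118, 239 and 279 CPM in the cardiomyocyte stage and 9.27, 32.2 and 66.8 CPM in the progenitor stage (log2 difference 2.89 ± 0.047, adjusted p = 9.88e-29). Tcf21, a factor of epicardium and fibroblasts, had 18.9, 67.9 and 123 CPM in the cardiomyocyte stage and 3.98, 6.66 and 10.9 CPM in the progenitor stage (log2 difference 3.08 ± 0.13, adjusted p = 1.36e-14). Tbx18, an epicardial T-box factor, had 133, 165 and 313 CPM in the cardiomyocyte stage and 1.02, 19.6 and 90.5 CPM in the progenitor stage (log2 difference 3.96 ± 0.10, adjusted p = 2.58e-17). Each separated the stages, and the difference of Tbx18 was 2.31 without D5. Endothelium genes counted 6 higher of 8 with none lower, yet the median of their summed level was 354 CPM in the cardiomyocyte stage and 402 CPM in the progenitor stage. Smooth muscle genes were split, 2 higher (40.0%, against 39.3% of all genes) and 2 lower (40.0%, against 37.8%) of 5. Myh11, the smooth muscle myosin, had 7.18, 64.2 and 94.9 CPM in the cardiomyocyte stage and 2.38, 7.56 and 24.95 CPM in the progenitor stage (log2 difference 2.20 ± 0.21, adjusted p = 3.35e-07). Acta2, the smooth muscle actin, had 555, 1026 and 1396 CPM in the cardiomyocyte stage and 967, 1303 and 2351 CPM in the progenitor stage (log2 difference -0.68 ± 0.082, adjusted p = 3.11e-06), and a difference of -0.41 without D15.

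Signalling genes differed by pathway. In the TGF-beta list 10 of 15 were higher (66.7%, against 39.3% of all genes) and 4 lower (26.7%, against 37.8%) (median 2.03). The type II receptor Tgfbr2 had 55.3, 126 and 273 CPM in the cardiomyocyte stage and 11.9, 21.1 and 42.3 CPM in the progenitor stage (log2 difference 2.54 ± 0.061, adjusted p = 1.03e-24). The latent-complex protein Ltbp3 had 14.2, 49.4 and 231 CPM in the cardiomyocyte stage and 1.23, 4.12 and 8.93 CPM in the progenitor stage (log2 difference 3.94 ± 0.089, adjusted p = 2.94e-25). Both separated the stages. The ligand Tgfb2 was called lower (log2 difference -0.68 ± 0.046, adjusted p = 9.28e-14), but not without D15 (adjusted p = 0.768). BMP genes were divided, 10 lower (52.6%, against 37.8% of all genes) and 5 higher (26.3%, against 39.3%) of 19. The antagonist Nog (noggin) had 0.5295, 2.15 and 7.18 CPM in the cardiomyocyte stage and 14.1, 22.8 and 36.5 CPM in the progenitor stage (log2 difference -2.98 ± 0.16, adjusted p = 8.38e-15). The ligand Bmp2 had 4.32, 14.3 and 35.1 CPM in the cardiomyocyte stage and 29.6, 43.6 and 84.98 CPM in the progenitor stage (log2 difference -1.85 ± 0.10, adjusted p = 3.52e-14). The receptor Acvr1 had 47.96, 62.9 and 76.8 CPM in the cardiomyocyte stage and 26.8, 39.7 and 44.7 CPM in the progenitor stage (log2 difference 0.81 ± 0.053, adjusted p = 2.36e-14). Nog and Acvr1 separated the stages in opposite directions, and Bmp2 overlapped. The FGF list counted 10 higher (71.4%) and 3 lower (21.4%) of 14. Its receptor Fgfr3 had 3.52, 50.9 and 167 CPM in the cardiomyocyte stage and 227, 289.7 and 405 CPM in the progenitor stage, without overlap (log2 difference -3.36 ± 0.09, adjusted p = 6.81e-16). The difference of Fgfr3 was -1.90 without D15. The ligand Fgf1 had 1498 reads in the cardiomyocyte stage against 9 in the progenitor stage (adjusted p = 9.49e-22). Notch genes counted 12 higher and 2 lower of 15. The target Hey1 averaged 2.695 ± 1.32, 3.91 ± 1.05, 10.4 ± 4.42, 35.3 ± 9.37, 45.4 ± 6.402 and 7.15 ± 1.605 CPM over the 6 days (log2 difference 2.24 ± 0.19, adjusted p = 6.43e-09), highest at D10. In the IGF axis the growth factor gene Igf2 had 17237, 21774 and 28664 CPM in the cardiomyocyte stage and 5076, 11835 and 12717 CPM in the progenitor stage, without overlap (log2 difference 1.26 ± 0.031, adjusted p = 2.39e-24). The receptor Igf1r was lower (log2 difference -0.52 ± 0.039, adjusted p = 7.50e-13). The Wnt list counted 10 higher (43.5%) and 7 lower (30.4%) of 23. The retinoic acid list counted 7 higher (50.0%) and 6 lower (42.9%) of 14, and the YAP list 6 higher (50.0%) and 5 lower (41.7%) of 12. Over all genes the shares were 39.3% and 37.8%.

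Lysosome, clock, antigen presentation and immediate early lists leaned up. Lysosome genes counted 19 higher and 3 lower of 23 (median 0.83), clock genes 12 higher and none lower of 15 (median 0.79), antigen presentation genes 9 higher and 1 lower of 11 (median 1.10) and immediate early genes 10 higher and 1 lower of 14 (median 0.96). Ctsb, the protease cathepsin B, had 231, 364 and 632 CPM in the cardiomyocyte stage and 85.4, 155 and 199 CPM in the progenitor stage (log2 difference 1.48 ± 0.036, adjusted p = 1.14e-24). Per2, a repressor of the clock, had 8.62, 12.7 and 53.7 CPM in the cardiomyocyte stage and 1.46, 2.9996 and 4.32 CPM in the progenitor stage (log2 difference 2.73 ± 0.14, adjusted p = 7.12e-17). Egr1, an immediate early factor, had 26.3, 69.4 and 138 CPM in the cardiomyocyte stage and 5.23, 11.1 and 18.9 CPM in the progenitor stage (log2 difference 2.65 ± 0.19, adjusted p = 1.54e-08). All 3 separated the stages. Targets of p53 counted 10 lower and 3 higher of 15. Aen, a nuclease, had 28.2, 38.7 and 58.2 CPM in the cardiomyocyte stage and 64.5, 81.3 and 124 CPM in the progenitor stage, without overlap (log2 difference -1.13 ± 0.058, adjusted p = 1.08e-16). Cdkn1a, the CDK inhibitor p21, had 82.1, 111 and 146 CPM in the cardiomyocyte stage and 47.4, 71.01 and 115 CPM in the progenitor stage, with overlap (log2 difference 0.51 ± 0.084, adjusted p = 3.19e-05), and a difference of 0.77 without D5. Imprinted growth genes were divided, 11 higher (55.0%, against 39.3% of all genes) and 8 lower (40.0%, against 37.8%) of 20. Phlda2, which limits placental growth, had 0.154, 0.5802 and 1.21 CPM in the cardiomyocyte stage and 4.32, 10.9 and 44.9 CPM in the progenitor stage, without overlap (log2 difference -4.56 ± 0.21, adjusted p = 4.02e-18). H19, an imprinted noncoding RNA, had 3275, 5583 and 6741 CPM in the cardiomyocyte stage and 2280.2, 2768 and 4399 CPM in the progenitor stage, with overlap (log2 difference 0.68 ± 0.031, adjusted p = 6.45e-18).

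Few genes behaved as a switch between 2 flat stages. A gap of at least 1 log2 unit between the nearest day means of the stages was found for 385 genes higher (2.94%) and 47 lower (0.358%). By the ratio of the range within a stage to that gap, the 5 rises nearest to a switch were Mylip, Socs2, Adcy7, Scara3 and Ddit4. Mylip, a ubiquitin ligase that marks the LDL receptor for breakdown (chr13:45389742-45412022, plus strand, GRCm38), averaged 1.83 ± 0.499, 1.999 ± 1.06, 3.3004 ± 0.623, 19.2 ± 1.71, 22.2 ± 4.48 and 27.2 ± 1.91 CPM over D5, D6, D7, D8, D10 and D15 (log2 difference 3.29 ± 0.14, adjusted p = 1.49e-18), with 2.53 ± 0.23 for D8 minus D7. Socs2, a suppressor of cytokine and growth hormone signalling, averaged 5.21 ± 0.894, 4.13 ± 0.921, 3.04 ± 0.6996, 23.03 ± 4.06, 30.9 ± 3.38 and 22.2 ± 4.12 CPM (log2 difference 2.64 ± 0.12, adjusted p = 4.68e-18), with 2.91 ± 0.22 for D8 minus D7. In both, the 3 days of each stage lay close together and the stages far apart. Adcy7, Scara3 and Ddit4 (an inhibitor of mTORC1) differed between the stages by 2.14 ± 0.14, 2.65 ± 0.13 and 1.58 ± 0.16, and D8 from D7 by 1.69 ± 0.23, 2.46 ± 0.22 and 1.51 ± 0.27. The 5 falls were Cth, Hoxb1, Rhebl1, Pvrl1 and Rpl28. Cth, which makes cysteine from cystathionine, averaged 18.4 ± 1.84, 12.1 ± 1.73, 16.7 ± 3.45, 2.54 ± 0.912, 0.649 ± 0.277 and 2.17 ± 0.113 CPM (log2 difference -3.34 ± 0.16, adjusted p = 1.41e-17), with -2.73 ± 0.24 for D8 minus D7. Hoxb1 averaged 114 ± 9.65, 101 ± 19.4, 25.5 ± 3.51, 4.09 ± 0.393, 4.81 ± 0.583 and 2.02 ± 0.892 CPM (log2 difference -4.27 ± 0.11, adjusted p = 7.67e-23): it was already lower at D7 than at D6 and low from D8. Rhebl1, Pvrl1 (nectin 1) and Rpl28 differed by -2.03 ± 0.17, -1.92 ± 0.094 and -1.33 ± 0.17. Itga8, an integrin, differed by 2.24 ± 0.089 for D8 minus D7 and reached 251 ± 22.3 CPM at D15.

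**Figure D5:**
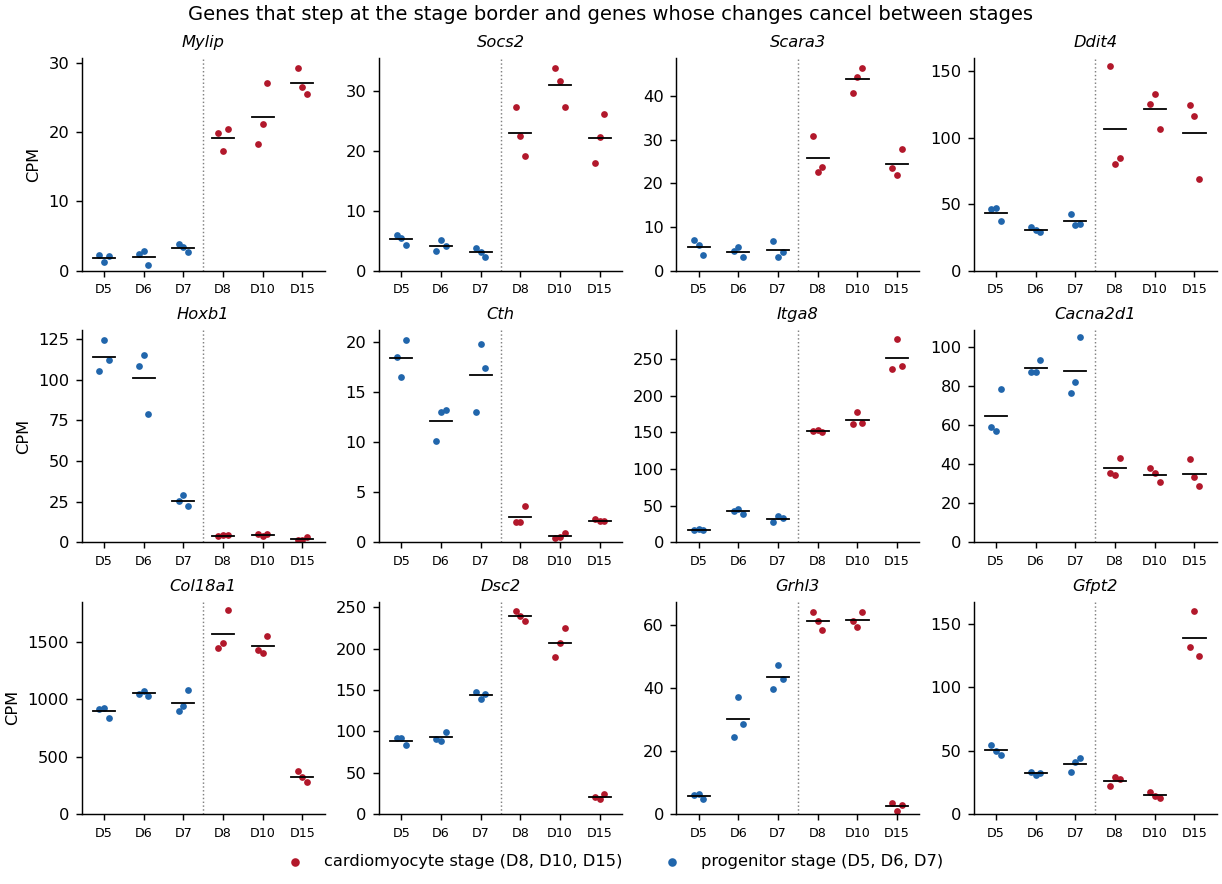
CPM in each library (points) and the day's mean (bars), by day, for 12 genes, with the stage border dotted, the progenitor stage in blue and the cardiomyocyte stage in red, each axis starting at 0. Mylip, Socs2, Scara3, Ddit4, Cth, Itga8 and Cacna2d1 step at the border. Col18a1, Dsc2 and Grhl3 are high at D8 and D10 and low at D15. Their stage means lie close together on the log2 scale, which is not the scale drawn here.

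At the other end, 74 genes had a 95% interval of the difference that lay within 0.1 log2 units of 0. The 6 of highest level were Vim, Ctnnb1, Cltc, Spnb2, Trip12 and Uba1. Vim (vimentin), the filament of mesenchymal cells, had 1196, 1397 and 1739 CPM in the cardiomyocyte stage and 1133, 1266 and 1816 CPM in the progenitor stage. Ctnnb1 (beta-catenin) had 1091, 1154 and 1257 CPM in the cardiomyocyte stage and 1018, 1146 and 1286 CPM in the progenitor stage. The ranges of the stages overlapped in both. The interval of Vim holds for this choice of days: its difference was 0.10 without D15 and -0.10 without D5, both called. A difference near 0 did not mean a flat course, since 1762 of the 3005 genes not called between stages were called across the 6 days. The 8 with the largest F across days were Nes, Dsc2, Robo1, Grhl3, Gfpt2, Mtap1b, Col18a1 and Slc1a3. Col18a1, whose collagen gives the fragment endostatin, averaged 896 ± 49.2, 1053 ± 22.9, 972 ± 95.3, 1571 ± 180.0, 1463 ± 76.2 and 326 ± 44.5 CPM over D5, D6, D7, D8, D10 and D15 (adjusted p between stages = 0.0827). Dsc2, a desmosomal cadherin, averaged 88.9 ± 5.08, 92.8 ± 5.95, 144 ± 3.85, 239.6 ± 5.91, 207 ± 17.5 and 21.03 ± 2.88 CPM (adjusted p = 0.243). Both were highest at D8 and lowest at D15. Gfpt2, of the hexosamine pathway, averaged 50.1 ± 3.96, 32.2 ± 1.45, 39.6 ± 5.701, 26.2 ± 3.92, 14.9 ± 2.57 and 139 ± 18.7 CPM (adjusted p = 0.345), lowest at D10 and highest at D15. Nes (nestin) averaged 254 ± 11.98, 67.9 ± 10.5, 43.4 ± 10.2, 48.99 ± 4.66, 101 ± 8.499 and 131 ± 7.27 CPM (adjusted p = 0.402), highest at D5. Without D15 the differences of Col18a1, Dsc2, Gfpt2 and Nes were 0.65, 1.08, -1.003 and -0.35, all called, and without D5 those of Dsc2 and Nes were -0.19 and 0.67. Col18a1 was also called without D5 (-0.16) and without 1 library of D7, D8 or D15 (-0.12 to -0.13). A further 57 genes had no count on a day of both stages, and the contrast called none of them.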

How the data were processed

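RNA of 18 libraries was sequenced as single-end reads of 50 bases from polyadenylated RNA (TruSeq kit, HiSeq4000), per the labels' protocols. The authors deposited raw read counts per gene symbol for 23337 symbols. Reads had been aligned with STAR to mm10, per the submitters' processing notes; the counting tool, annotation, versions and any use of strand are not given in the sources used here. Columns were matched to days by their names, which carry a running number and no replicate number, and 3 further columns, whose names fit no sample given, were not used. No pair of libraries of a day agreed within counting noise (chi-square over degrees of freedom 2.21 to 9.23).

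Genes were kept by edgeR's filterByExpr over days (minimum count 10), scaled by TMM factors (0.916 to 1.05) and fitted with 1 mean per day by quasi-likelihood (edgeR 4.0.16 in R 4.3.3), with 12 residual degrees of freedom and a biological coefficient of variation of 8.27%. The contrast set the mean of the 3 later days against that of the 3 earlier days, with Benjamini-Hochberg adjustment over all 13116 genes. The fit was tested on simulated data in which the days of a stage were equal, unlike here, so that its outcome covers that simpler setting alone. Because days weigh equally on the log scale, 307 genes with no count on some day have fitted differences that depend on edgeR's default prior count. No SE or fitted fold of theirs is given, only a floor of the fold where a stage had no read. The prior count of 2 enters only the log2 CPM levels. Values with ± beside a log2 difference are SE, and those beside a day mean are SD over 3 libraries.

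The members, the 69 lists and the naming rule were chosen with earlier results of these data known. Named were the 15 largest rises and falls without overlap and whose mean log2 CPM reached 2, the 5 genes of each direction nearest to a switch, up to 4 members of smallest p and the contrary members of a list, 19 set genes, the 6 most abundant constant genes, and the 8 genes with the largest F across days that were not called; some genes that this rule names are not reported here. The motif TGATGNAA and the genes shown for their promoters were added after values were seen. Promoters are from RefSeq (GRCm38.p6). Gene positions are from GENCODE M21 on GRCm38. By that annotation, exons of 57 of the 167 annotated genes named here overlap another gene, whose reads could not be told apart without strand. Under 80% of the 50-base stretches of Igf2 (37.9%), Rpl28 (72.6%) and Myh6 (79.8%) are unique to the gene among annotated transcripts. The rest of the genome was not searched. Older symbols are kept as deposited: Pvrl1 is now Nectin1, Spnb2 Sptbn1 and Mtap1b Map1b. Other settings tried were RLE and upper quartile factors, 2 other filters, a test against a fold of 2, DESeq2 1.42.0, limma-voom (limma 3.58.1), stages as the only groups, days left out, D8 against D7, and each library left out. Intervals and floors cover counting error only.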

Additional observations from a re-analysis of the deposited data

How the results depend on the processing

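The counts of 5156 genes higher and 4955 lower stayed within 1.5 times under RLE or upper quartile factors, both other filters, DESeq2, limma-voom, stages as the only groups, and without D15 or D5. Leaving out 1 library gave 5096 to 5198 higher and 4902 to 4965 lower, and 1148 to 1375 higher and 1088 to 1296 lower without overlap. Against a fold of 2 the counts were 1739 higher and 472 lower, and for D8 against D7 alone 1648 higher and 1520 lower, both stricter or narrower by construction. Of the 174 tested genes named, some turned with the days compared: for D8 against D7 the differences of Aldh1l2, Has2, Isl1, Lama1, Nrf1, Tfam, Tgfb2 and Vcan turned to -1.15, 0.31, 0.43, 0.40, 0.14, 0.23, 0.22 and 0.49. That of Vcan was 0.032 without D15 and that of Gata4 -0.091 without D5. A list median counted as reversed when it changed sign and both medians exceeded 2 times the median SE of its members. By that rule those of pluripotency genes (0.54) and smooth muscle genes (0.30) reversed without D5. That of the YAP list reversed for D8 against D7 (-0.28) and without D15 (-0.24). Other medians changed sign within that limit. For D8 against D7 they included the second heart field (-0.88 to 0.18), endothelium (1.45 to -0.083) and IGF (1.26 to -0.03) lists. No called difference of a named gene turned sign under another scaling, filter or tool, and the cause of the reversals was not tested. With stages as the only groups 9 named genes lost their call, and leaving out 1 library changed the call of Col18a1, Mtap1b, Robo1 and Myoz2 alone. No paired analysis was possible because the columns carry no replicate number. The non-overlap counts under other settings were chosen after seeing the data. Depth limits genes near the floor: Gli1, for example, could not be tested, and the 57 genes with an empty day in both stages cannot be called by this contrast.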

Other observations

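In the heart muscle markers the libraries of a day differed in the same order on each day. The first-listed library had the highest sum on 6 of 6 days and the third-listed the lowest on 6 of 6, with a ratio of the highest to the lowest of 1.29 to 2.71 within a day. For fibroblast markers the third-listed library was the highest on 6 of 6 days, with ratios of 1.10 to 1.45, and the first-listed the lowest on 2 of 6. Endothelium markers were highest in the third-listed library on 5 of 6 days and epicardium markers on 2 of 6, so that the epicardium sum kept no fixed order. The labels give the order of the columns no meaning, and it was not used to pair libraries.

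Among genes that no list above describes, the pluripotency list (9 genes tested) was divided, with Klf4 at 3.53, 5.52 and 17.6 CPM in the cardiomyocyte stage and 5.06, 17.9 and 23.2 CPM in the progenitor stage (log2 difference -0.88 ± 0.12, adjusted p = 1.37e-07), a difference of -1.45 without D15 and -0.52 without D5. Tfcp2l1, another factor of that list, had 8.98, 14.7 and 23.5 CPM in the cardiomyocyte stage and 2.05, 3.65 and 11.6 CPM in the progenitor stage (log2 difference 1.68 ± 0.14, adjusted p = 3.02e-12). Both overlapped between the stages. The matrix proteoglycan Ogn had 3.98, 38.7 and 415 CPM in the cardiomyocyte stage and 0.459, 0.978 and 2.95 CPM in the progenitor stage, without overlap (log2 difference 5.17 ± 0.16, adjusted p = 1.02e-21), and was highest at D15, at 370.1 ± 50.1 CPM (SD, n = 3).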
